A study of Mus musculus with 24 samples.

Results

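The clustered protocadherins of the alpha, beta and gamma clusters were followed across age and genotype in dermal papilla (DP) cells of the mouse, the mesenchymal cells at the base of the hair follicle. Members were taken by gene name, as every gene whose name begins with Pcdha, Pcdhb, Pcdhga, Pcdhgb or Pcdhgc followed by its number, with the C-type genes Pcdhac1 and Pcdhac2. This gave 58 of the 25755 genes listed, with 14 in the alpha cluster, 22 in the beta cluster and 22 in the gamma cluster.

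Clustered protocadherins are cell-surface proteins of the cadherin superfamily that bind identical proteins on neighbouring cells and are best known from neurons, where the set that a cell expresses marks its identity. In the alpha and gamma clusters each gene has its own promoter and variable first exon, which is spliced to constant exons shared by the whole cluster, whereas the beta genes have no such constant exons. The promoters are chosen by DNA methylation, the insulator protein CTCF and cohesin, which bring a promoter to distant enhancers, and the C-type genes at the end of the alpha and gamma clusters are known to follow other rules than the rest.

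DP cells were profiled at postnatal day 20 (P20), in telogen of the first hair cycle, at P24 and P28, in early and mid anagen of the second cycle, and at P60, in telogen of the second cycle. At each age 3 control and 3 dM1/2 mice gave 24 libraries in all. dM1/2 mice carry Corin-Cre (Cor-cre) with both alleles of Hdac1 and of Hdac2 floxed, so that Cre deletes both histone deacetylase genes in cells in which the Corin promoter is active. Controls carry Corin-Cre too, together with floxed Hdac1, floxed Hdac2 or the pair of them, and per the methods some were homozygous for one of these, while the labels do not say which genotype each control library has. Cells were labelled with YFP through the same Cre and sorted from the skin of single mice. Per the methods, P20 skins were from females, P24 and P28 skins were from males and P60 skins could be from either sex, so that in comparisons between anagen and telogen, hair cycle stage, sex and depth cannot be told apart. Each P20 library held 11635062 to 13369732 reads assigned to genes, each P24 library 35469841 to 49331751, each P28 library 37171260 to 48331795 and each P60 library 8171944 to 9724000. Levels are given as normalized reads, the reads of a gene after division by a size factor for each library.

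The targeted genes were read in every library. Hdac1 measured 675, 668 and 668 normalized reads in P24 controls and 209, 188 and 116 in P24 dM1/2 libraries. At P28 the controls measured 214, 529 and 105 and the dM1/2 libraries 190.2, 149 and 126, so that the library labelled P28 control 3 lay below every P28 dM1/2 library. The telogen means were 464 ± 76.9 against 285 ± 77.9 at P20 and 414 ± 80.1 against 345 ± 26.7 at P60 (SD, n = 3), with control and dM1/2 libraries not overlapping at P20 and overlapping at P60. Hdac2 averaged 1014 ± 77.8 in P24 controls and 1221 ± 62.3 in P24 dM1/2 libraries (SD, n = 3). For Hdac2, at no age did all dM1/2 libraries lie below the controls. These are reads over whole genes, and whether deleted alleles still gave counted reads was not tested, so they do not measure deletion. By immunostaining in mid anagen of the first hair cycle, the paper found few DP cells of mutant mice positive for these deacetylases. P28 controls also differed in the sum of 8 fibroblast markers, which was 2104875, 5907482 and 278050 normalized reads. The sum of 13 DP markers in the same libraries was 277795, 152395 and 443286, against 138547 to 158616 in P28 dM1/2 libraries. P28 results are therefore also given without each of these controls.

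The 3 clusters follow each other on the plus strand of chromosome 18 (build GRCm38, the authors' mm10, positions from GENCODE M21), the alpha cluster at chr18:36930184-37187661, the beta cluster at chr18:37264938-37524479 and the gamma cluster at chr18:37661793-37841873. All alpha genes share constant exons, with 2860 or more of their exonic bases shared with other genes, and all gamma genes 2116 or more. HTSeq, in the mode it uses by default, drops a read that lies in exons of several genes. Exons of genes on the other strand were not taken off here, which assumes that reads were counted by strand. An alpha or gamma value is then the read count over the variable first exon and other bases shared with no gene of that strand. These countable bases had a median of 2480 in the alpha, 3714 in the beta and 2630 in the gamma cluster, and levels are compared between genes only per kb of them. Members also resemble each other in sequence. The share of 50-base windows, the read length, that are found in no other annotated gene had a median of 86.0% in the alpha, 96.5% in the beta and 99.0% in the gamma cluster, with the lowest values for Pcdha6 (70.8%) and Pcdhgb1 (83.2%), whose counts are therefore less certain. The gene listed as Pcdhga8 under ENSMUSG00000023036 is annotated as Pcdhgc4 and is called Pcdhgc4 here, and of 2 genes listed as Pcdha11, ENSMUSG00000007440 has the start of Pcdha10 and is called so. Pcdhgb8 is annotated as a polymorphic pseudogene, all other members as protein-coding, and it was placed by symbol because GENCODE M21 lacks its identifier. Per the methods the Corin-Cre line and the floxed Hdac lines were of different strains, and the strain of each library is not given.

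The gamma cluster was the most highly expressed of the clusters in DP cells, and a single gene gave more than any other. Pcdhgc3, a C-type gene found in many cell types, averaged 1375 normalized reads per countable kb over the 24 libraries, and the other gamma genes ranged from 20.9 for Pcdhgc5 to 153 for Pcdhgb6, followed by Pcdhga11 at 127. In each group Pcdhgc3 held on average between 47.5% and 59.3% of the summed gamma reads. All 22 gamma genes passed the filter used for testing, a mean of at least 10 normalized reads.

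In the beta cluster 21 of 22 genes passed this filter. Pcdhb16 led with 99.5 normalized reads per countable kb, followed by Pcdhb17 at 77.3 and Pcdhb7 at 60.9, while Pcdhb4 was the lowest that passed at 19.8. Pcdhb1, at the start of the cluster and apart from the other beta genes, had 2 reads in all 24 libraries together.

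The alpha cluster was close to the limit of detection. Its 14 genes together summed to between 18.8 and 147 normalized reads per library, which stood for 8 to 370 reads. Only Pcdhac2 at 6.74 and Pcdha10 at 4.35 normalized reads per countable kb passed the filter in any comparison, and Pcdha12 came next at 2.38. The C-type gene Pcdhac1 averaged 0.762 normalized reads and had no read in 13 of 24 libraries. A library without a read allows up to 3 reads. The other 12 alpha genes and Pcdhb1 were under the filter in each comparison, and without the filter a few of these low genes passed, named here after their values were seen. Pcdha8 was then higher in dM1/2 cells at P28, with 0, 0 and 3 reads in controls and 4, 8 and 17 in dM1/2 libraries (limma, log2 fold change 1.82, SE 0.53, adjusted p = 0.0442). Pcdha5, Pcdha11 and Pcdha12, and also Pcdha10, which is under the filter in that comparison, were higher in anagen than in telogen controls, with adjusted p-values from 0.00226 to 0.0375. Pcdha12, the highest of these 12 genes, had 0, 4 and 1 reads in P20 controls, 1, 0 and 1 in P60 controls, 33, 25 and 30 in P24 controls and 24, 7 and 20 in P28 controls.

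**Figure D1:**
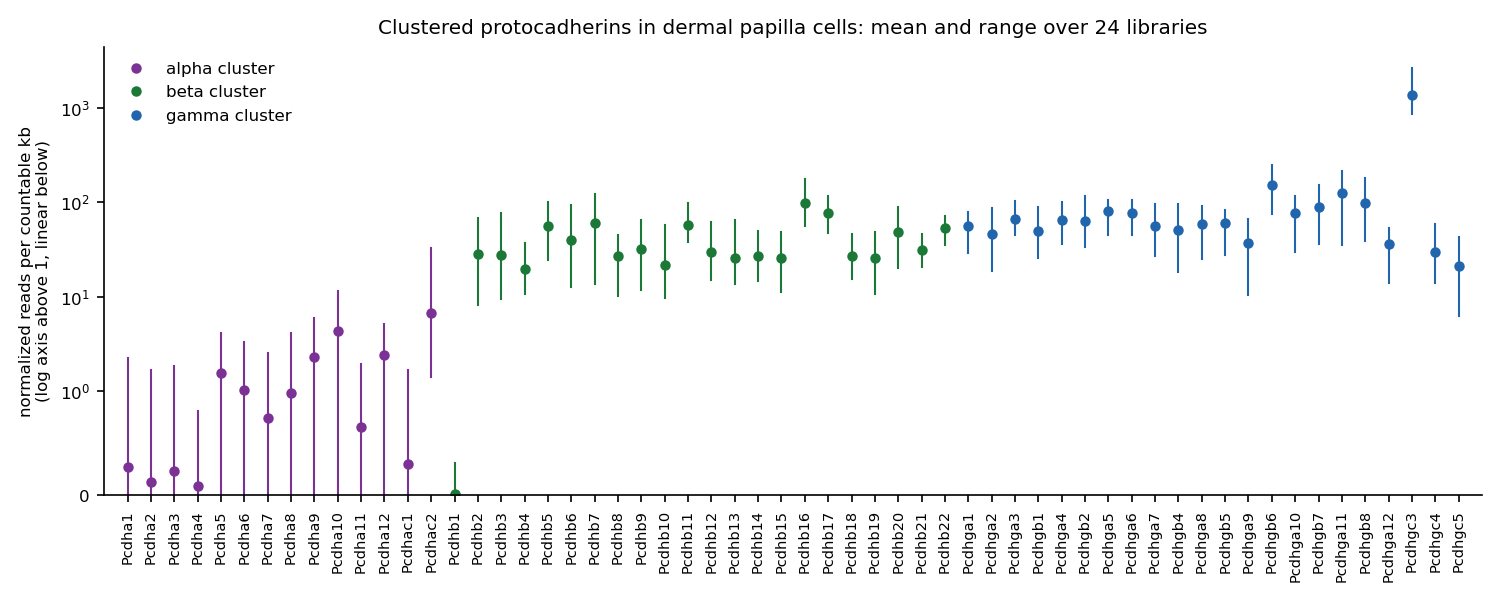
Mean level of each of the 58 members in normalized reads per countable kb (vertical axis, logarithmic above 1 and linear below), in their order along the locus, with lines from the lowest to the highest of 24 libraries. Pcdhgc3 stands above all other members at 1375, the beta genes except Pcdhb1 and the other gamma genes lie between 19.8 and 153, and no alpha gene exceeds a mean of 6.74.

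The first question was how loss of Hdac1 and Hdac2 changed these genes at each age. In anagen the summed gamma reads, about as many of them from Pcdhgc3 as from the other 21 genes, were lower in dM1/2 cells. The 22 gamma genes summed to 8196, 8401 and 8651 normalized reads in P24 controls and to 5845, 7244 and 5459 in P24 dM1/2 libraries. At P28 they summed to 9789.9, 9635 and 10575 in controls and to 6509.9, 6177 and 6879.8 in dM1/2 libraries. Every dM1/2 library lay below every control at both ages, at 0.735 times the control mean at P24 and 0.652 times at P28. Without Pcdhgc3 the sums were apart at P28 alone, and at P24 they were 3905, 4147 and 5245 in controls against 2939, 4339.7 and 2120.1 in dM1/2 libraries, with dM1/2 library 2 among the controls. In these sorted but bulk samples, fewer cells that express a gene and less RNA per cell cannot be told apart.

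The 7 gamma B genes summed to 2060.1 ± 333 normalized reads in controls and 1217 ± 386 in dM1/2 libraries at P24, and to 1982 ± 329 and 1063 ± 63.9 at P28 (SD, n = 3), and the libraries of the 2 genotypes did not overlap. They were also below every control in telogen, with sums of 1430.3, 1297 and 1358 in P20 dM1/2 libraries against 1685, 1602 and 1707 in controls, and at P60 of 1644, 1715 and 1809.8 against 1822, 2343 and 1861. At P20 this rested on Pcdhgb8 (log2 fold change -1.27), without which the gamma B sums overlap. The median log2 fold change of the 7 genes at P20 was -0.10, with 4 of them below 0. At P60, 6 of the 7 were below 0, 0 passed the test of single members, and the nearest sums were close. The 12 gamma A genes had non-overlapping sums at P28 alone, 2273, 2178 and 2655 in controls against 1756, 1305 and 1508 in dM1/2 libraries. At P24 dM1/2 library 2 measured 2349, among the controls, and the other two 1533 and 1131. Sums were read as values and have no test.

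**Figure D2:**
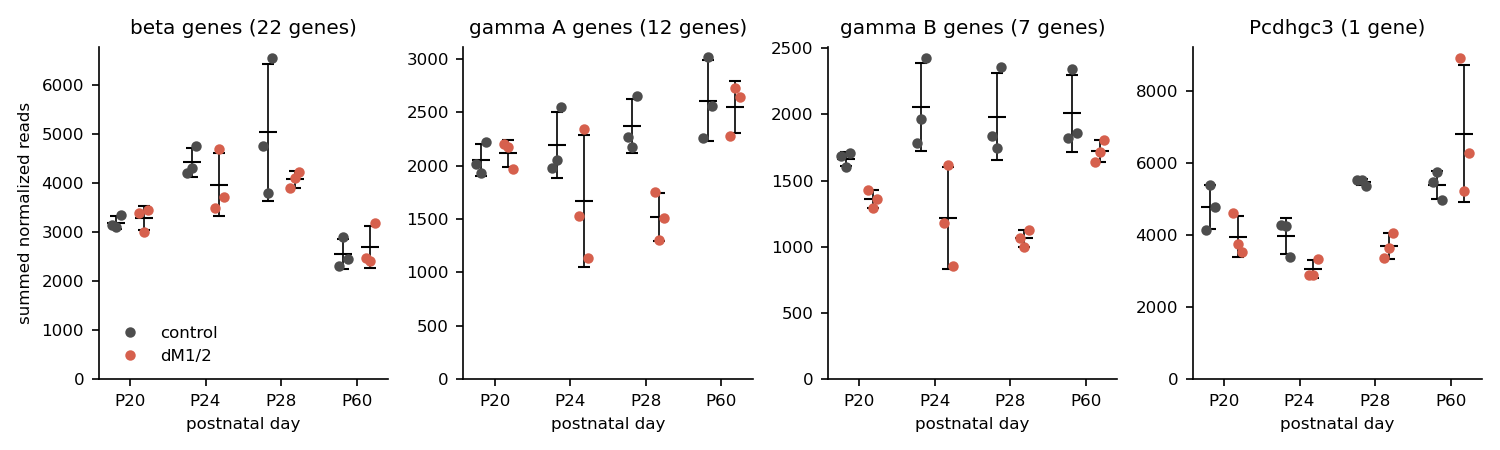
Summed normalized reads (vertical axes, from 0) of the beta genes, the gamma A genes, the gamma B genes and Pcdhgc3 by postnatal day, with 1 point per library, grey for controls and red for dM1/2, and the mean and SD of 3 libraries in black. The gamma B sums of the dM1/2 libraries lie below all control libraries at each age, with the widest gap at P28 (998 to 1126 against 1748 to 2357). At P20 this holds only with Pcdhgb8 in the sum. The beta sums of controls are higher at P24 and P28 than at P20 and P60.

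Single members were tested with limma on log2(normalized reads + 1), on all genes that passed the filter, with adjusted p-values over all of them. At P24, 5 of the 45 members tested fell and 0 rose, while 11.8% of all 14028 genes tested fell and 14.8% rose. At P28, 16 of 45 members fell and 1 rose, while 15.6% of 14126 genes fell and 20.0% rose. The median log2 fold change of the members was -0.31 at P24 and -0.45 at P28, against -0.01 and 0.00 over all genes. Every dM1/2 library lay below every control for 12 of 45 members at P24, where 21.0% of all genes did so, and for 22 of 45 at P28, where 23.3% did. At P24 the share of members that fell was thus at the level of the background, and at P28, with all libraries, it was above it.

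Most of these calls were in the gamma cluster, where 4 of 22 genes fell at P24 and 11 of 22 fell and 1 rose at P28. Pcdhga11 changed most among them. It measured 330.4, 349.9 and 403 normalized reads in P24 controls and 185, 189 and 92.3 in P24 dM1/2 libraries, and at P28 369, 370.2 and 314 against 141, 115 and 157. All 6 anagen dM1/2 libraries lay below all 6 anagen controls. The gene was 2.42-fold lower at P24 (log2 fold change -1.28, SE 0.28, adjusted p = 0.0153) and 2.55-fold lower at P28 (log2 fold change -1.35, SE 0.17, adjusted p = 0.00174).

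Pcdhgb7, which lies just before Pcdhga11, measured 278, 285 and 373 in P24 controls and 161, 177 and 125 in P24 dM1/2 libraries. At P28 it measured 239.7, 211 and 308 against 119, 93.4 and 140.1. It fell at both ages, by 1.01 (SE 0.19, adjusted p = 0.00909) and by 1.10 (SE 0.23, adjusted p = 0.01) on the log2 scale. Pcdhgb6, the most abundant gamma gene per kb after Pcdhgc3, fell from 500.4 ± 121 to 255 ± 58.0 normalized reads at P24 and from 470.3 ± 54.4 to 249 ± 25.4 at P28 (SD, n = 3), with adjusted p-values of 0.0191 and 0.0044. Pcdhgb8 was the remaining gene that fell at P24, from 395 ± 56.2 to 229 ± 67.2 (log2 fold change -0.81, SE 0.22, adjusted p = 0.0331), and it also fell at P28 (log2 fold change -0.69, SE 0.20, adjusted p = 0.032).

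A further 6 variable gamma genes fell at P28 alone by this test. Pcdhgb4 measured 204, 188 and 344 in controls and 131, 91.7 and 73.5 in dM1/2 libraries, a drop of 2.44 times (log2 fold change -1.29, SE 0.31, adjusted p = 0.0187). Pcdhga10 measured 221, 225 and 235 against 133, 76.7 and 125 (log2 fold change -1.06, SE 0.24, adjusted p = 0.0138). For Pcdhga7, Pcdhgb2, Pcdhgb5 and Pcdhga6 the log2 fold changes were -0.94, -0.93, -0.89 and -0.69, with adjusted p-values from 0.00482 to 0.0338. At P24 these 6 genes had log2 fold changes between -0.99 and -0.51, none past the threshold, and the difference between P24 and P28 was not tested.

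The C-type genes of the gamma cluster went in different directions. Pcdhgc3 measured 5535, 5539 and 5383 normalized reads in P28 controls and 3376, 3651 and 4076 in P28 dM1/2 libraries, and fell by 0.57 on the log2 scale (SE 0.13, adjusted p = 0.0135). The libraries were apart at P24 too, at 4291, 4254 and 3406 against 2906, 2904 and 3339, where the change did not pass the threshold (log2 fold change -0.38, SE 0.14, adjusted p = 0.0802). Pcdhgc4 was the only member that rose. It measured 60.5, 73.7 and 75.5 in P28 controls and 178, 125 and 117 in P28 dM1/2 libraries, all of them above the controls (log2 fold change 0.97, SE 0.23, adjusted p = 0.0174). At P24 it measured 61.1, 64.8 and 148 against 144, 207 and 106, with control library 3 among the dM1/2 libraries (log2 fold change 0.80, SE 0.39, adjusted p = 0.17). Pcdhgc5, the last gene of the cluster, averaged 94.2 ± 11.2 in P28 controls and 95.6 ± 41.2 in dM1/2 libraries (SD, n = 3), with overlapping libraries.

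**Figure D3:**
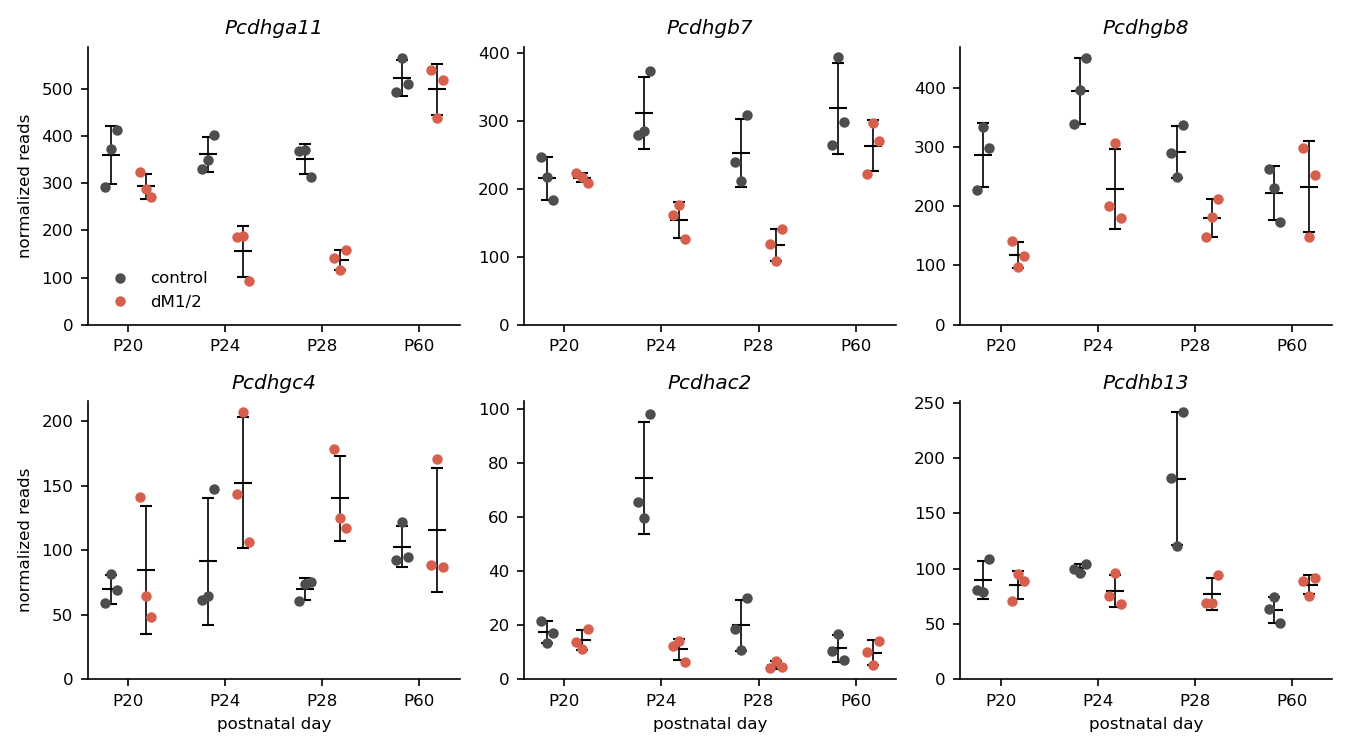
Normalized reads (vertical axes, from 0) of Pcdhga11, Pcdhgb7, Pcdhgb8, Pcdhgc4, Pcdhac2 and Pcdhb13 by postnatal day, with 1 point per library, grey for controls and red for dM1/2, and the mean and SD of 3 libraries in black. Pcdhga11 and Pcdhgb7 are apart at P24 and P28 and overlap at P60, Pcdhgb8 is apart at P20, P24 and P28, and Pcdhac2 peaks in P24 controls at 59.7 to 98.1.

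The difference between genotypes varied with the place of a gene in the gamma cluster. Among the 19 gamma A and B genes, the log2 fold change became more negative along the cluster, with a Spearman rho between position and fold change of -0.89 at P24 and -0.68 at P28. Under the other settings and with each library left out, rho lay between -0.90 and -0.80 at P24 and between -0.73 and -0.66 at P28. In telogen rho was -0.44 at P20 and -0.14 at P60. The first 10 genes, Pcdhga1 to Pcdhgb4, had a median log2 fold change of -0.16 at P24 and -0.49 at P28, and 0 and 4 of them fell. For the last 9, Pcdhga8 to Pcdhga12, the medians were -0.82 and -0.90, and 4 and 6 of them fell. The genes at the start were close to 0 or above it, with Pcdhga1 at 0.08 and -0.22 and Pcdhga2 at 0.32 and 0.40. These correlations are across genes of the same 6 libraries at each age, which share depth and sequence with their neighbours, and the division into these groups was made after the values were seen, so no test is given.

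Antisense exons are annotated over 8 of the 22 gamma genes, Pcdhga10, Pcdhga11, Pcdhgb7 and Pcdhgc3 among them, and it is not stated whether reads were counted by strand. Of these 8 genes 5 fell at P28 and the median log2 fold change was -0.86, and of the 14 without antisense exons 6 fell and the median was -0.63. The constant exons that all gamma transcripts carry are not part of the counts, so the total of gamma transcripts is seen only as the sum over variable exons.

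**Figure D4:**
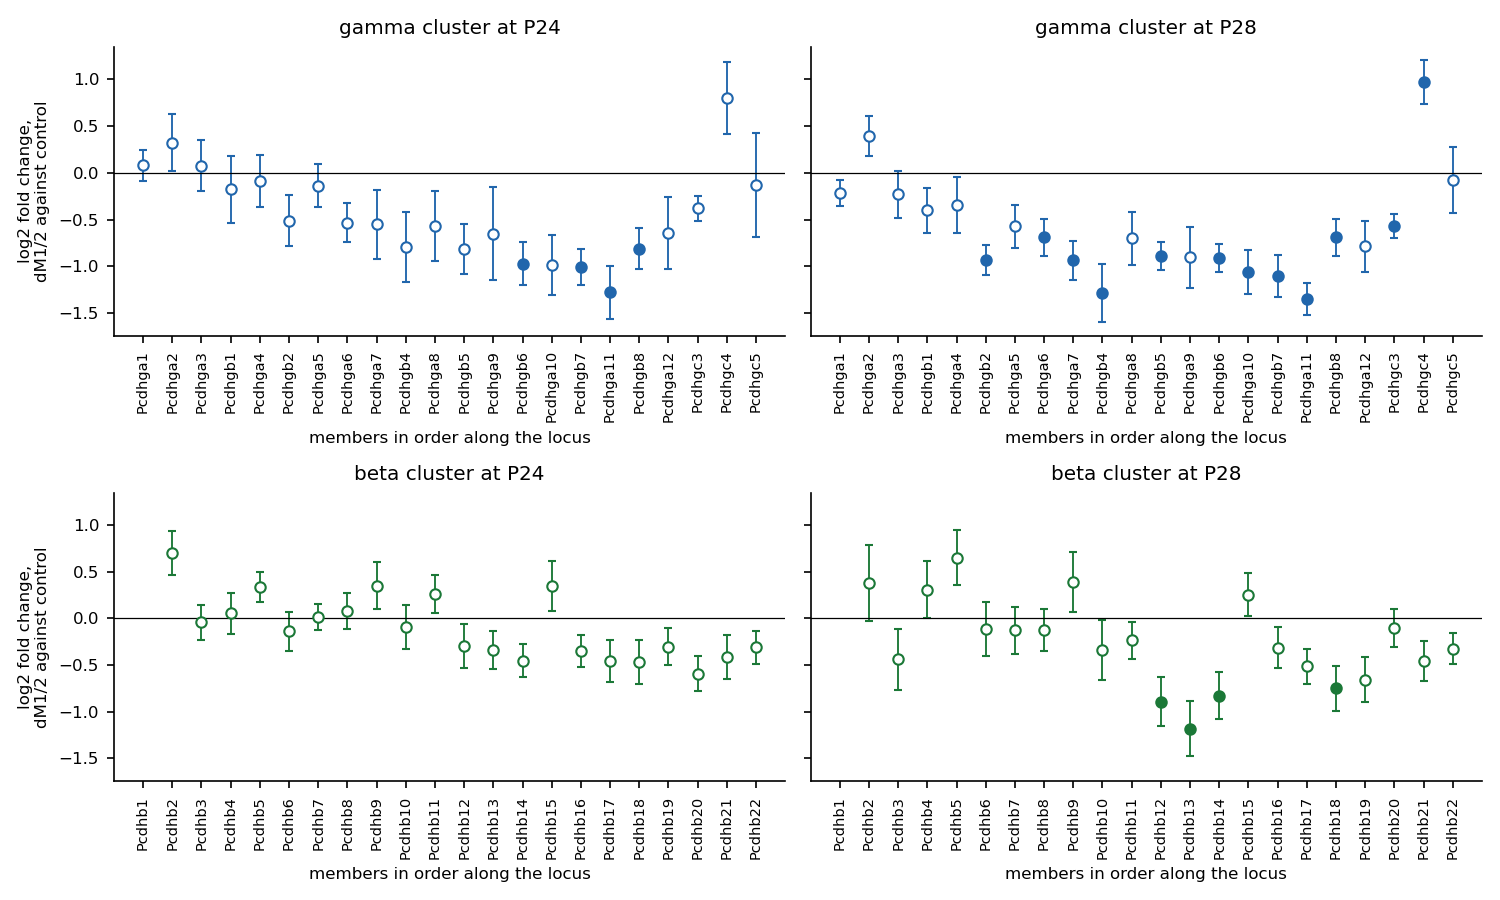
Log2 fold change of dM1/2 against control (vertical axes) of the gamma genes (top) and beta genes (bottom) at P24 (left) and P28 (right), in their order along the locus, with bars of 1 SE and filled points for adjusted p-values under 0.05. In the gamma cluster values descend from 0.32 for Pcdhga2 to -1.28 for Pcdhga11 at P24 and Pcdhgc4 stands above 0 at both ages. Pcdhb1 was not tested.

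At P28 the calls depended on single libraries. Without P28 control 2, which has the highest fibroblast marker sum, 18 of 46 members fell and 1 rose, where 16.6% of all genes fell and 20.0% rose. Without the library labelled P28 control 3, which has the lowest Hdac1, 10 of 45 members fell and 4 rose, where 19.1% of all genes fell and 21.8% rose, so that the share that fell was then near the background. Without P28 control 1, 8 of 46 members fell and 0 rose, where 8.91% of all genes fell and 14.2% rose. Without dM1/2 library 1, 12 of 45 members fell and 1 rose, where 12.2% of all genes fell and 17.1% rose. Without dM1/2 library 2, 6 of 45 members fell and 0 rose, where 9.03% of all genes fell and 12.5% rose. Without dM1/2 library 3, 10 of 45 members fell and 1 rose, where 10.2% of all genes fell and 13.2% rose. Pcdhga10, Pcdhga11, Pcdhgb2, Pcdhgb5, Pcdhgb6 and Pcdhgb7 passed in all 6 of these fits and Pcdhgc3 and Pcdhgc4 in 4 of 6. The rise of Pcdhgc4 kept a log2 fold change between 0.79 and 1.09. At P24, 3 of 46 members fell without dM1/2 library 1 (background 7.56%) or without dM1/2 library 3 (7.48%), 9 of 46 fell without dM1/2 library 2 (7.31%), and Pcdhac2, Pcdhga11 and Pcdhgb7 passed in all 6 fits.

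In the beta cluster few genes passed between genotypes. Its sums overlapped between genotypes at every age, at 4202, 4298 and 4754 in P24 controls against 3495, 4700.4 and 3703 in dM1/2 libraries. At P28 they were 4749, 3802 and 6555 against 3896, 4092 and 4232, with the library labelled P28 control 3 above all others. None of 21 beta genes passed the threshold at P24 by limma, where 3 had an unadjusted p under 0.05 and DESeq2 called 1 higher and 1 lower. Of all genes DESeq2 called 17.5% higher and 16.0% lower at that age. At P28, 4 of 21 fell (19.0%) and 0 rose, where 15.6% of all genes fell and 20.0% rose, so that the share that fell was near the background.

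These 4 genes lie in the middle and later part of the cluster. Pcdhb13 measured 182, 120.4 and 241 in P28 controls and 68.7, 69.0 and 93.9 in dM1/2 libraries (log2 fold change -1.18, SE 0.29, adjusted p = 0.0204). Pcdhb12 measured 127, 134 and 188 against 88.7, 94.3 and 58.6, and its exons overlap antisense exons (log2 fold change -0.89, SE 0.27, adjusted p = 0.0383). Pcdhb14 fell from 331 ± 98.2 to 182 ± 27.8 and Pcdhb18 from 187 ± 46.3 to 109 ± 15.0 (SD, n = 3), with adjusted p-values of 0.0402 and 0.0464. In all 4 the libraries of the genotypes did not overlap. These calls depended on single libraries too. Without the library labelled P28 control 3, Pcdhb13 was the beta gene that still fell and 2 beta genes rose, Pcdhb5 among them, and without P28 control 1, dM1/2 library 1 or dM1/2 library 2 no beta gene passed.

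The largest rises of the beta cluster in anagen did not pass the threshold. Pcdhb2 measured 86.3, 101 and 71.5 in P24 controls and 115, 180.1 and 131 in dM1/2 libraries, with no overlap (log2 fold change 0.70, SE 0.24, adjusted p = 0.0636). Pcdhb5 averaged 225 ± 93.6 in P28 controls and 336 ± 36.0 in dM1/2 libraries (log2 fold change 0.65, SE 0.29, adjusted p = 0.13). At the other end, Pcdhb20 had the lowest log2 fold change of the beta genes at P24 (log2 fold change -0.59, SE 0.19, adjusted p = 0.0534). Position and log2 fold change were related in the beta cluster too, with a rho of -0.72 at P24 and -0.48 at P28 over 21 genes, and ranges of -0.76 to -0.53 and of -0.58 to -0.36 over the other settings. At P60, where no gene passed, rho was -0.50, and at P20 it was 0.29, so that the relation in the beta cluster was not limited to anagen.

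In the alpha cluster Pcdhac2, the C-type gene nearest to the constant exons, was the member with the largest fall. It measured 65.4, 59.7 and 98.1 normalized reads in P24 controls, from 169, 119 and 247 reads, and 12.4, 14.1 and 6.43 in dM1/2 libraries, from 34, 37 and 19 reads. It was 6.44-fold lower (log2 fold change -2.69, SE 0.38, adjusted p = 0.00337). At P28 it measured 18.7, 10.9 and 30.0 in controls and 4.26, 6.86 and 4.42 in dM1/2 libraries. The log2 fold change was -1.67 (SE 0.50, adjusted p = 0.0401), and the call was kept in 1 of 5 fits with a library left out. All P28 dM1/2 values of Pcdhac2 were under the mean that the filter requires, so it was tested at P28 because of its controls. Without the library labelled P28 control 3 it was under the filter and was not tested. Pcdha10 was the other alpha gene tested and did not pass, at 8.26, 2.56 and 19.0 in P28 controls against 28.6, 22.3 and 26.9 in dM1/2 libraries (log2 fold change 1.62, SE 0.64, adjusted p = 0.0932). All dM1/2 libraries lay above the controls, and without the library labelled P28 control 3 the rise of Pcdha10 passed (log2 fold change 2.22, adjusted p = 0.0156).

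In telogen few members differed between genotypes. At P20, 1 of 44 members fell and 0 rose, where 0.0795% of 13845 genes fell and 0.354% rose. This was Pcdhgb8, at 228, 333 and 298 normalized reads in controls and 141, 97.4 and 117 in dM1/2 libraries, from 85, 123 and 104 and 62, 44 and 63 reads. It was 2.41-fold lower (log2 fold change -1.27, SE 0.21, adjusted p = 0.0464), and the call was kept without P20 control 1 and lost without any other single library, with adjusted p-values up to 0.182. At P60 Pcdhgb8 averaged 222 ± 45.4 in controls and 233 ± 76.6 in dM1/2 libraries (SD, n = 3). Pcdhac2 had a log2 fold change of -0.26 at P20. The other extremes at P20 were Pcdhgc5 (log2 fold change 0.69, SE 0.34, adjusted p = 0.286), Pcdhb9 (0.54) and Pcdhb7 (-0.61).

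At P60, 0 of 44 members passed, as did 0.00% of the 14042 genes tested, and 1 member and 525 genes had an unadjusted p under 0.05. DESeq2 and edgeR called 0 members at P60 too, and 26 and 0 genes in all. The largest differences were Pcdhb5 (log2 fold change 0.62, SE 0.27, adjusted p = 0.986) and Pcdhga7 (log2 fold change -0.58, SE 0.26, adjusted p = 0.986), with Pcdhb20 at -0.42, Pcdhgc5 at 0.33 and Pcdhac2 at -0.22. Pcdhga11 measured 493, 565 and 509.5 in P60 controls and 540.3, 437 and 518 in dM1/2 libraries, above all anagen controls. P20 and P60 libraries hold fewer reads, and a gamma gene such as Pcdhgb2 had 56, 42 and 51 reads in P20 controls against 457, 355 and 523 in P24 controls.

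Whether the effect differed between anagen and telogen was tested over all 24 libraries, as the mean effect at P24 and P28 minus the mean effect at P20 and P60. The difference was negative and past the threshold for 13 of 45 members and positive for 0, where 14.1% of 14243 genes were lower and 16.1% higher. It held for 9 of 22 gamma genes, 3 of 21 beta genes and Pcdhac2, and the beta share (14.3%) was at the level of the background. The largest was that of Pcdhac2 (log2 difference -1.94, SE 0.45, adjusted p = 0.00305), followed by Pcdhga11 (log2 difference -1.14, SE 0.21, adjusted p = 0.000518), Pcdhga10 (log2 difference -1.03, SE 0.25, adjusted p = 0.00458) and Pcdhgb4 (log2 difference -1.01, SE 0.36, adjusted p = 0.0371). Pcdhgb7, Pcdhga12, Pcdhgb6, Pcdhga5, Pcdhgb5 and Pcdhgc3 lay between -0.93 and -0.49, and Pcdhb13, Pcdhb12 and Pcdhb14 between -0.95 and -0.71. For Pcdhgb8, lower in dM1/2 cells at P20 as well, the difference was -0.13 (SE 0.25, adjusted p = 0.745). Leaving out a library in turn, 8 of the 13 passed in all 24 fits, and the number of members past the threshold ranged from 9 without P60 control 1 to 18 without P24 dM1/2 library 2. The shares of all genes that were lower in those fits were 13.4% and 13.2%.

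The second question was how the clusters changed over the hair cycle in controls. Here the beta cluster moved. Of 44 members tested, 20 were higher in anagen (P24 and P28) than in telogen (P20 and P60) and 0 were lower, where 23.8% of 14066 genes were higher and 21.9% lower. The 20 were 18 of 21 beta genes, Pcdhac2 and 1 of 22 gamma genes. The median log2 fold change was 0.70 in the beta cluster, 0.09 in the gamma cluster and 0.02 over all genes.

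Pcdhb3 rose most, from 48.2, 64.9 and 60.2 normalized reads at P20 and 54.6, 35.7 and 62.3 at P60 to 137, 134 and 149 at P24 and 179.6, 115 and 289 at P28. All anagen controls lay above all telogen controls, with a 2.95-fold difference (log2 fold change 1.56, SE 0.22, adjusted p = 0.000329). Pcdhb6, Pcdhb2 and Pcdhb7 followed at log2 fold changes of 1.40, 1.33 and 1.23, with adjusted p-values of 0.000773, 0.00411 and 0.000174. Pcdhb7 measured 163, 133 and 189 at P20, 274, 288 and 306 at P24, 362, 226 and 434 at P28 and 98.7, 112 and 108 at P60. It was again higher in each anagen control than in any telogen control.

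Pcdhb16, the most abundant beta gene per kb, rose from 414 ± 21.2 at P20 and 364 ± 58.7 at P60 to 698 ± 84.7 at P24 and 687 ± 216 at P28 (SD, n = 3, log2 fold change 0.81, SE 0.15, adjusted p = 0.00127). Pcdhb10 rose by 1.15 and Pcdhb9 by 1.02 (log2), and the other beta genes past the threshold, Pcdhb5, Pcdhb8, Pcdhb11 to Pcdhb15, Pcdhb18 to Pcdhb20 and Pcdhb22, by 0.41 to 0.91. With a control left out, the calls of Pcdhb14 and Pcdhb15 were kept in 2 and 4 of 12 fits, and those of the other beta genes in all 12. Pcdhb4, Pcdhb17 and Pcdhb21 had positive values of 0.30, 0.33 and 0.34 that did not pass. Pcdhac2 also rose (log2 fold change 1.37, SE 0.31, adjusted p = 0.00461), with the high values at P24 alone.

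In the gamma cluster Pcdhgb8 was the gene that passed (log2 fold change 0.44, SE 0.14, adjusted p = 0.0293), and the call was kept in 6 of 12 fits with a library left out. Pcdhgc3 had a log2 fold change of -0.12 (SE 0.10) and Pcdhga11 of -0.28 (SE 0.11, adjusted p = 0.0522). With each control left out in turn, 17 to 20 members passed, where 20.0% to 25.6% of all genes were higher and 18.7% to 24.0% lower. The difference between the clusters was not tested. The DP marker sum was 320149 to 392293 normalized reads in P24 controls and 152395 to 443286 in P28 controls, against 37713 to 44511 in P20 controls and 24544 to 35349 in P60 controls, and its part in this difference was not tested.

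**Figure D5:**
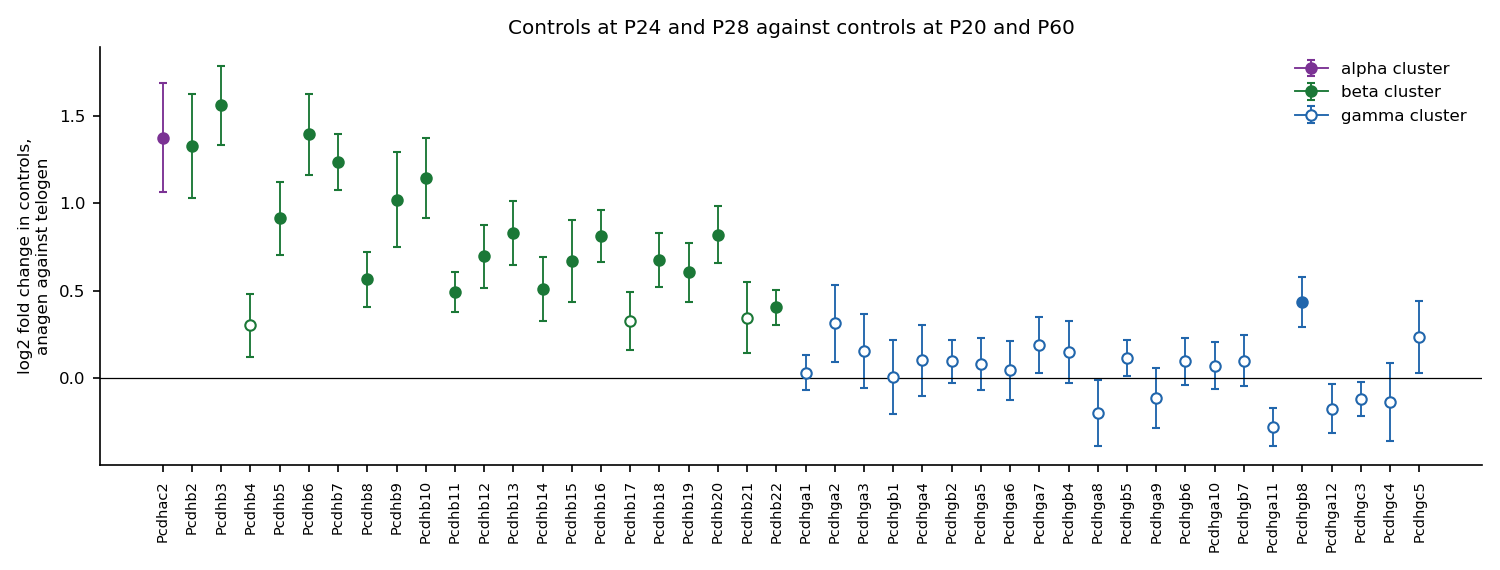
Log2 fold change of anagen controls (P24 and P28) against telogen controls (P20 and P60) for the 44 members tested (vertical axis), in their order along the locus, with bars of 1 SE and filled points for adjusted p-values under 0.05. All 21 beta genes lie above 0, from 0.30 to 1.56, and the gamma genes lie between -0.28 and 0.44.

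Within anagen, 0 of 45 members passed between P28 and P24 controls, where 1.46% of 13966 genes passed in either direction and 6 members had an unadjusted p under 0.05. DESeq2 called 3 members, 2 higher and 1 lower, and 5.01% of all genes higher and 5.69% lower. The largest difference was that of Pcdhac2, with 74.4 ± 20.7 normalized reads at P24 and 19.9 ± 9.59 at P28 (SD, n = 3, log2 fold change -1.93, SE 0.42, adjusted p = 0.0818). Between the telogens, 3 of 44 members were higher in P60 than in P20 controls and 0 lower, where 6.12% of 13900 genes were higher and 6.45% lower. They were the gamma genes Pcdhgc5, at 53.6, 59.5 and 28.7 at P20 and 124, 124 and 119.9 at P60 (log2 fold change 1.42, SE 0.31, adjusted p = 0.0195), Pcdhgb2 (log2 fold change 0.97, SE 0.21, adjusted p = 0.0171) and Pcdhgb4 (log2 fold change 0.66, SE 0.19, adjusted p = 0.0463). Leaving out P20 control 3 or P60 control 2 left 0 of these calls, leaving out P60 control 1 or P60 control 3 left 1 member past the threshold, and leaving out P20 control 2 left 2. In these fits, in the same order, 1.72%, 2.03%, 3.16%, 3.46% and 3.60% of all genes were higher.

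Genes known to act on or with these clusters were counted from lists. Of 28 regulators of promoter choice and their chromatin, 2 rose and 1 fell at P24, and 4 rose and 2 fell at P28, with list medians of 0.10 and 0.02. Among all genes 14.8% rose and 11.8% fell at P24 and 20.0% rose and 15.6% fell at P28, so that the share of this list past the threshold was not above the background at either age. Dnmt1, the maintenance DNA methyltransferase, rose from 753 ± 143 to 1722 ± 36.6 normalized reads at P28 (log2 fold change 1.21, SE 0.15, adjusted p = 0.00159) and by 0.95 at P24. Stag2, a subunit of cohesin, fell from 2535 ± 204 to 1478 ± 159.8 at P28 (log2 fold change -0.78, SE 0.13, adjusted p = 0.00475), with a log2 fold change of -0.38 at P24, whereas Smc3, another cohesin subunit, rose by 0.41 and 0.44. Nipbl, which loads cohesin, fell at P28 (log2 fold change -0.45, SE 0.13, adjusted p = 0.0371), and Rest and Trim28, which take part in repression, rose by 0.60 and 0.49 at P28. Ctcf did not pass at either age (0.05 at P24 and -0.31 at P28). At P20 and P60 0 of the 28 passed.

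Among 22 partners of the cytoplasmic tails, with the WAVE complex that links them to actin, 1 rose and 2 fell at P24, and 2 rose and 5 fell at P28. The shares over all genes were 14.8% and 11.8% at P24, and 20.0% and 15.6% at P28. Psen2, a presenilin of the protease complex that cleaves these proteins in the membrane, fell from 501 ± 56.0 to 156 ± 2.7 normalized reads at P28 (log2 fold change -1.67, SE 0.14, adjusted p = 0.00046) and by 1.02 on the log2 scale at P24. Of WAVE proteins and subunits of their complex, Wasf1 rose by 0.86 and 1.50, Cyfip2 rose by 2.09 at P28, Wasf3 had a log2 fold change of -0.94 at P24, and Wasf2 and Nckap1 had -0.47 and -0.40 at P28. Outside that complex, the actin regulators Marcks and Rock1 had log2 fold changes of -0.66 and -0.47 at P28. The list medians were -0.10 at P24 and -0.18 at P28.

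The 12 protocadherins outside the clusters were lower as a sum too. They summed to 6926 to 8213 normalized reads in P24 controls and 4784 to 6305 in P24 dM1/2 libraries, and to 6987 to 7879 and 4352 to 5504 at P28, so that every dM1/2 library lay below every control at both ages. Most of the P28 difference in the sum was that of Pcdh18. The means of Pcdh1, Pcdh8, Pcdh10 and Pcdh17 were higher in P28 dM1/2 libraries than in controls. At P24, 1 of 11 tested rose and 1 fell, and at P28, 2 of 12 rose and 1 fell, with median log2 fold changes of -0.35 and -0.39, against -0.31 and -0.45 for the members. Of all genes, 14.8% rose and 11.8% fell at P24, and 20.0% rose and 15.6% fell at P28, so these counts were not above the background. Pcdh17 rose from 64.7 ± 37.8 to 239 ± 88.7 at P28 (log2 fold change 1.97, SE 0.48, adjusted p = 0.0182) and by 1.49 at P24. Pcdh18, the most abundant of them per exonic kb, fell from 3483 ± 1183 to 1448 ± 132 (log2 fold change -1.22, SE 0.23, adjusted p = 0.00756), Pcdh20 fell at P24 (log2 fold change -0.98, SE 0.19, adjusted p = 0.01) and Pcdh1 rose at P28 by 0.55.

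Genes beside the clusters on the chromosome were counted too. Of 20 neighbours, 4 rose and 1 fell of 19 tested at P24, and 4 rose and 0 fell of 20 at P28, with medians of -0.02 and 0.08. Over all genes 14.8% rose and 11.8% fell at P24, and 20.0% rose and 15.6% fell at P28. The share of neighbours that rose at P28 was thus at the background. Zmat2, Wdr55, Fchsd1 and Rell2 rose at both ages. Wdr55 went from 105 ± 6.58 to 239 ± 55.3 normalized reads at P28 (log2 fold change 1.16, SE 0.21, adjusted p = 0.00624). Rell2 went from 3.5 ± 1.87 to 41.7 ± 11.8 at P28 (log2 fold change 3.28, SE 0.47, adjusted p = 0.00256). The Rell2 control mean was under the mean that the filter requires, so Rell2 was tested at P28 because of its dM1/2 level. Arap3 fell at P24 (log2 fold change -1.28, SE 0.20, adjusted p = 0.00469). The difference between neighbours and members was not tested.

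Markers of DP and of other cell types moved with some of these results. Of 13 DP markers, 6 fell and 1 rose in dM1/2 cells at P24 and 4 fell and 3 rose at P28, and 12 rose and 1 fell in anagen controls against telogen controls. For these and the marker counts below, the shares over all genes were 11.8% lower and 14.8% higher at P24, and 15.6% lower and 20.0% higher at P28. In anagen against telogen controls they were 23.8% higher and 21.9% lower. The DP sum was 175827 to 219379 normalized reads in P24 dM1/2 libraries, below all P24 controls. Sums of 10 keratinocyte markers were between 78.0 and 622 normalized reads in every library, with 2 of 6 tested lower at P24 and 0 of 5 passing at P28. Of the nervous system, where these genes are best known, 8 neuronal markers summed to 359, 362 and 254 normalized reads in P28 controls and to 388, 917 and 853 in P28 dM1/2 libraries, all of them above the controls, with 1 of 3 tested lower at P24 and 1 of 4 higher at P28. The 8 Schwann cell markers summed to 1378, 1407 and 891 in P24 controls and to 619, 828 and 812 in P24 dM1/2 libraries, all of them below the controls, with 2 of 7 lower and 1 higher at P24 and 1 lower and 1 higher at P28. In lists of 6 melanocyte, 6 endothelial, 6 immune, 5 muscle and 5 dermal sheath markers, 1 endothelial and 1 sheath marker were lower at P24 and 1 sheath marker at P28. Among fibroblast markers 0 of 8 passed at P24 and 1 rose and 1 fell at P28, and their sum at P20 was 6168094 to 7838431 in controls against 3168594 to 4352151 in dM1/2 libraries. Krt71, a marker of the inner root sheath, had no read in P20 or P60 libraries. In controls, 5 of 8 fibroblast, 2 of 2 muscle, 2 of 5 sheath, 1 of 5 endothelial, 1 of 3 melanocyte, 0 of 6 keratinocyte and 0 of 3 immune markers were lower in anagen and none of these rose. Of the neuronal markers 2 of 3 were lower and 1 higher, and of the Schwann cell markers 2 of 7 were lower and 2 higher. Their part in the results on protocadherins was not tested.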

How the data were processed

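RNA-seq was made from ribosome-depleted, directional libraries of sorted DP cells and sequenced as 50-base single-end reads. Per the methods, the authors used Trimmomatic for trimming, TopHat 2 for alignment to mm10, HTSeq for counts per Ensembl gene (GRCm38.p4) and DESeq2 for normalization. The values the authors deposited are a signal per gene and library, the count divided by the size factor of that library. Dividing by the smallest step in each library gave whole reads for 100% of values within 0.01 read, so counts were recovered for count tests. The deposited tables also hold the authors' fold changes and p-values, which were not used. The mode and the strand setting of the counting are not given in the sources used here.

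Groups were taken from the sample labels, with 3 libraries in each of 8 groups, each from a single mouse. Comparisons within an age, between ages in controls and between effects were tested with limma 3.58.1 (R 4.3.3, trended variance) on log2(normalized reads + 1), for genes that averaged 10 or more normalized reads across the compared libraries. Each test was two-sided, and p-values were adjusted by Benjamini-Hochberg over all genes tested, with a threshold of 0.05. Comparisons between control ages and between dM1/2 and control share the same control libraries. Fold changes on this scale understate those of low genes. A gene without a read was allowed up to 3 reads, which covers counting error only. With 3 against 3 libraries an exact permutation test of a single value cannot go below 0.1, so none is given. Alternatives were a pseudocount of 10, no filter, a replicate block, edgeR 4.0.16 (TMM, quasi-likelihood) and DESeq2 1.42.0 on the recovered reads, 1 fit over 24 libraries, and leaving out single libraries. On recovered reads, edgeR called 3746 genes at P24 and 4918 at P28, and DESeq2 called 4704 and 5827. The scripts were tested on simulated data.

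Positions and countable bases were taken from GENCODE M21 (GRCm38), whose release differs from the annotation the authors counted with. Members, gene lists and tests were chosen with earlier results of these data known. Named are all members that passed in a comparison, the 3 most abundant per cluster, the largest rise and fall per cluster and age, the C-type genes and Pcdhgb8, and of each pathway list the genes that passed between genotypes. Sequences of the members are not printed here.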

Additional observations from a re-analysis of the deposited data

Results flagged for a closer look

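For 13 members the difference between the dM1/2 effect in anagen and that in telogen passed the threshold in the test of the difference itself (limma, adjusted p under 0.05), with a lower value in anagen each time. On the log2 scale the difference was -1.94 for Pcdhac2, -1.14 for Pcdhga11, -1.03 for Pcdhga10, -1.01 for Pcdhgb4, -0.95 for Pcdhb13, -0.93 for Pcdhgb7 and -0.80 for Pcdhga12. It was -0.78 for Pcdhb12, -0.71 for Pcdhb14, -0.70 for Pcdhgb6, -0.65 for Pcdhga5, -0.60 for Pcdhgb5 and -0.49 for Pcdhgc3. With a library left out, Pcdhgb4 passed in 10 of 24 fits, Pcdhga12 in 11, Pcdhga5 in 13, Pcdhb12 in 19 and Pcdhgc3 in 23, and the others in all 24. Pcdhga12 and Pcdhga5 did not pass between genotypes at any single age. Over all genes tested, 14.1% were lower and 16.1% higher by the same test.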

How the results depend on the processing

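Numbers of members past the threshold changed with some settings, and the cause was not tested. At P20 the 1 member became 0 without the filter, where 0.0541% of all genes fell. At P24 the 5 became 10 with DESeq2, 9 lower and 1 higher, where 16.0% of all genes were lower and 17.5% higher. Between P28 and P24 controls the 0 became 3 with DESeq2, 2 higher and 1 lower, where 5.01% of all genes were higher and 5.69% lower. With 1 fit over 24 libraries they became 2, 1 in each direction, where 4.41% of all genes were higher and 4.81% lower. With each library left out in turn, members past the threshold ranged from 0 to 1 at P20, from 3 to 9 at P24, from 6 to 19 at P28, and from 0 to 4 between P60 and P20 controls. Of all genes, 0.00% to 5.86% fell at P20, 5.85% to 13.4% at P24 and 8.91% to 19.1% at P28 in these fits. The shares that rose were 8.80% to 15.2% at P24 and 12.5% to 21.8% at P28, and 1.72% to 10.1% were higher in P60 than in P20 controls. Of the log2 fold changes of named members under the settings that kept all libraries, 383 kept their direction and side of the threshold, 26 lost and 2 gained the call. With a library left out, 661 kept both, 127 lost and 4 gained the call and 3 changed sign. The log2 fold change of Pcdha10 at P24, 0.07, ranged from -0.11 to 0.19 with a library left out and was -0.0017 without P24 control 3 and -0.11 without P24 dM1/2 library 3. That of Pcdhac2 at P60, -0.22, ranged from -0.51 to 0.14 and was 0.14 without P60 dM1/2 library 2. Depth limits the alpha genes, and P20 and P60 libraries most.

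Whether replicate numbers pair the samples is not stated and was not tested, and the main tests were made without pairing. Same-numbered control and dM1/2 libraries had correlations of deviations of 0.23, 0.08 and 0.12 at P20 and 0.34, 0.02 and 0.17 at P60, all above 0. At P24 these were -0.18, 0.04 and -0.40, and at P28 -0.15, 0.03 and -0.23. With the number as a replicate block, 3 members fell at P24, where 6.91% of all genes did, and 9 at P28, where 10.9% did. Between P60 and P20 controls 1 member was higher, where 2.88% of all genes were. The other counts of members stayed within 1.5 times. Over all genes, the block changed the number past the threshold from 60 to 439 at P20 and from 3735 to 2366 at P24.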
